A study of Homo sapiens with 21 samples.

Results

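The genes described here are 40 human genes of base excision repair, nucleotide excision repair and the direct reversal of DNA damage. They were chosen by name from a list, with earlier results of these data known. They were read on 64 of the 47323 probes of an Illumina expression BeadChip, and are 40 of the 20046 genes that a probe of the array names. The series asks what defects in mismatch repair do to the transcriptome. Hairpin RNAs against MSH3 or MSH6, the genes of a mismatch recognition subunit each, were expressed in KLE, an endometrial carcinoma cell line. The KLE groups carried hairpin 059 or 062 against MSH3 (shMSH3), hairpin 543 or 603 against MSH6 (shMSH6), or the control hairpin shCTRL. The other groups were control samples of HCT116, cells of a mismatch-repair-deficient colorectal carcinoma, and of MCF10A, immortalised breast epithelial cells that form no tumours. Each of the 7 groups had 3 arrays, and the KLE titles letter their arrays A, B and C. The labels call the HCT116 and MCF10A samples controls without naming a hairpin, so the line and the presence of a hairpin cannot be told apart when they are set against KLE shCTRL. Each line stands for itself and not for its tissue. The labels do not say that replicates came from separate cultures, so p-values measure the spread between these samples only.

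Base excision repair removes small base lesions such as uracil, oxidised guanine and alkylated bases. A DNA glycosylase cuts out the damaged base, an endonuclease opens the backbone at the empty site, and a polymerase and a ligase on the XRCC1 scaffold fill and seal the gap, with the PARP enzymes marking the break. Nucleotide excision repair removes bulky and ultraviolet lesions. XPC or the DDB1 and DDB2 complex finds them across the genome, while ERCC6 and ERCC8 act where RNA polymerase has stalled. The TFIIH complex then opens the helix and the ERCC1, ERCC4 and ERCC5 nucleases cut on either side. In direct repair, MGMT and the ALKBH enzymes undo alkylation without cutting the strand. Mismatch repair, which the hairpins target, is a separate pathway, and it acts on the products that MGMT leaves unrepaired.

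The promoters of 4 of these genes are shown because the largest differences below fall on them: MGMT had the widest range among the KLE groups, APTX and MBD4 were the largest rise and fall of HCT116 against KLE shCTRL, and ERCC1 was the largest rise of MCF10A. Each sequence is the 250 bases before 1 start of the gene in RefSeq (GRCh38.p14), 5′ to 3′ on the strand of the gene. Only 1 entry was kept per gene, so other starts that a gene may have were not read. Capitals mark a GC box, the letters GGGCGG on either strand. MGMT lies at chr10:129466991-129467240 on the plus strand. The others lie on the minus strand, APTX at chr9:33025121-33025370, MBD4 at chr3:129439949-129440198 and ERCC1 at chr19:45451548-45451797.
MGMT: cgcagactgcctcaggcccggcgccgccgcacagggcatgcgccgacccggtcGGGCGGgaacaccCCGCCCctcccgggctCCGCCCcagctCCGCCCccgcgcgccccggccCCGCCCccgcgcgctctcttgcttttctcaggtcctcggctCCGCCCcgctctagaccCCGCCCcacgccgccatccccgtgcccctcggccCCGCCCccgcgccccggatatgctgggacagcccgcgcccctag
APTX: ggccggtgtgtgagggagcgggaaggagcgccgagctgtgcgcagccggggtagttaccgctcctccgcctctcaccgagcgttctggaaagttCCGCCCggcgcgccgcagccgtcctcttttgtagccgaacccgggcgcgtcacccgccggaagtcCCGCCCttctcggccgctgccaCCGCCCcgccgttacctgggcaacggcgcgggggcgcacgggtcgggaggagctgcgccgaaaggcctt
MBD4: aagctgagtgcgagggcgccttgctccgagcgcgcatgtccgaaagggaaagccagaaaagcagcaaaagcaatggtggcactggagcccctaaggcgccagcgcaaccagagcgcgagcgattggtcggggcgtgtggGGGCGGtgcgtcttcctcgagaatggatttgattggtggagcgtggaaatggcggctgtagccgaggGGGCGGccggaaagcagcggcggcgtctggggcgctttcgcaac
ERCC1: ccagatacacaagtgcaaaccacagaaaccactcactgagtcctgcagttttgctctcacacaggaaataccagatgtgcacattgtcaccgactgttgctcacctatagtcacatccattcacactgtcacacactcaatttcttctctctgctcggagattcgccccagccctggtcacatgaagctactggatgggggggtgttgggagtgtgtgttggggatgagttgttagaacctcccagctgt
The MGMT promoter held 8 GC boxes. It had 36 CpG dinucleotides, as did APTX and NTHL1, the most of the matched genes. APTX had 3 GC boxes, MBD4 had 2, and the window read for ERCC1 had none and only 3 CpGs, the fewest. Another start of ERCC1 could differ. Of the 40 genes, 37 matched a promoter entry (SMUG1, NEIL2 and POLB did not). GC boxes were found in 26 of the 37 (70.3%), against 42.3% of all 27305 promoters in the table. The letters CCGGAA of an ETS motif were found in 10 (27%, against 14.8%), CCAAT in 16 (43.2%, against 33%) and TATAAA in none (against 11.1%), each searched on both strands. The NRF1 consensus, without mismatches, was found in 1 (2.7%, against 1.13%), and the E2F motifs TTTCGCGC and TTTGGCGC in none (against 0.996%). Matches of these motifs can overlap at their ends, as those of the GC box with CCAAT or the ETS letters. The median gene of the list had 22 CpGs and 64.4% GC in this window, against 11 CpGs and 58% for all promoters.

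The median intensity of an array was 87.71 to 122.2 units and no array minimum was below 66.27, so background remained in the values and the folds of dim genes come out too small. Levels are given as log2(intensity + 16) after quantile normalization, on which the median of every array is 6.92, and each gene is read by its brightest probe unless another is named. A gene was called when its adjusted p was under 0.05 in limma's moderated two-sided test. The Benjamini-Hochberg adjustment ran over 14792 genes in the fit of the KLE arrays, and over 14218 in that of the 3 lines' controls. All 40 genes were tested in both. Of their brightest probes, 34 lay above the array median on all 21 arrays. Those of MPG (15 arrays), NEIL1 (9), DDB2 (18), ERCC6 (14), ERCC2 (18) and ERCC4 (15) did not, so these genes were read near background.

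The target genes were checked first. MSH6 fell by 2.12 on the log2 scale with hairpin 543 (SE 0.099, adjusted p = 9.9e-07) and by 0.93 with hairpin 603 (SE 0.099, adjusted p = 0.00025), both against shCTRL. MSH3 fell by 0.79 with hairpin 059 and by 0.65 with hairpin 062 on its dim probe (SE 0.12 each, adjusted p = 0.0097 and 0.028), while its bright probe changed by -0.04 and -0.19 (adjusted p = 0.91 and 0.24). The 5 KLE arrays of letter A stood apart from those of B and C. Deviations from the group means correlated across genes with a median r of 0.69 within A, 0.53 within B and 0.57 within C. The median was 0.53 between B and C, so these were not set apart, and -0.60 and -0.61 between A and either of them. Deviations from a group's mean cancel out within the group, which by itself lowers the correlations between letters. Genes are not independent replicates, and these correlations carry no test. The letter is therefore a block in the KLE fit, and the KLE counts are also given without the arrays of A. Of the markers of Mullerian epithelium, PAX8 and EMX2 were read in KLE shCTRL, at log2 levels of 8.91 and 11.47, whereas PAX2, ESR1 and PGR were near background. MSX1 was also read there, at 9.37, but was higher in HCT116, at 11.39. In HCT116, 1 of 8 colon epithelial markers (CDX2, 8.70) lay over 0.3 above the median, and in MCF10A the basal keratins KRT5 and KRT14 averaged 11.39 and 10.72. ITGB4, the only other basal marker measured of 7 listed, had 9.52, 9.39 and 9.48 in MCF10A, against 8.15, 9.77 and 9.75 in KLE shCTRL. Of 5 general epithelial markers, 0 were higher and 3 lower in MCF10A than in KLE shCTRL (26.9% and 26.1% of all tested genes). KRT19 was near background in MCF10A, at 6.82, 6.81 and 6.83. MCF10A also had CD14 (10.17), a leukocyte marker, and DCN (10.84), a fibroblast marker; in HCT116 and KLE shCTRL 0 of 4 leukocyte and 0 of 5 fibroblast markers lay over 0.3 above the median.

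**Figure D1:**
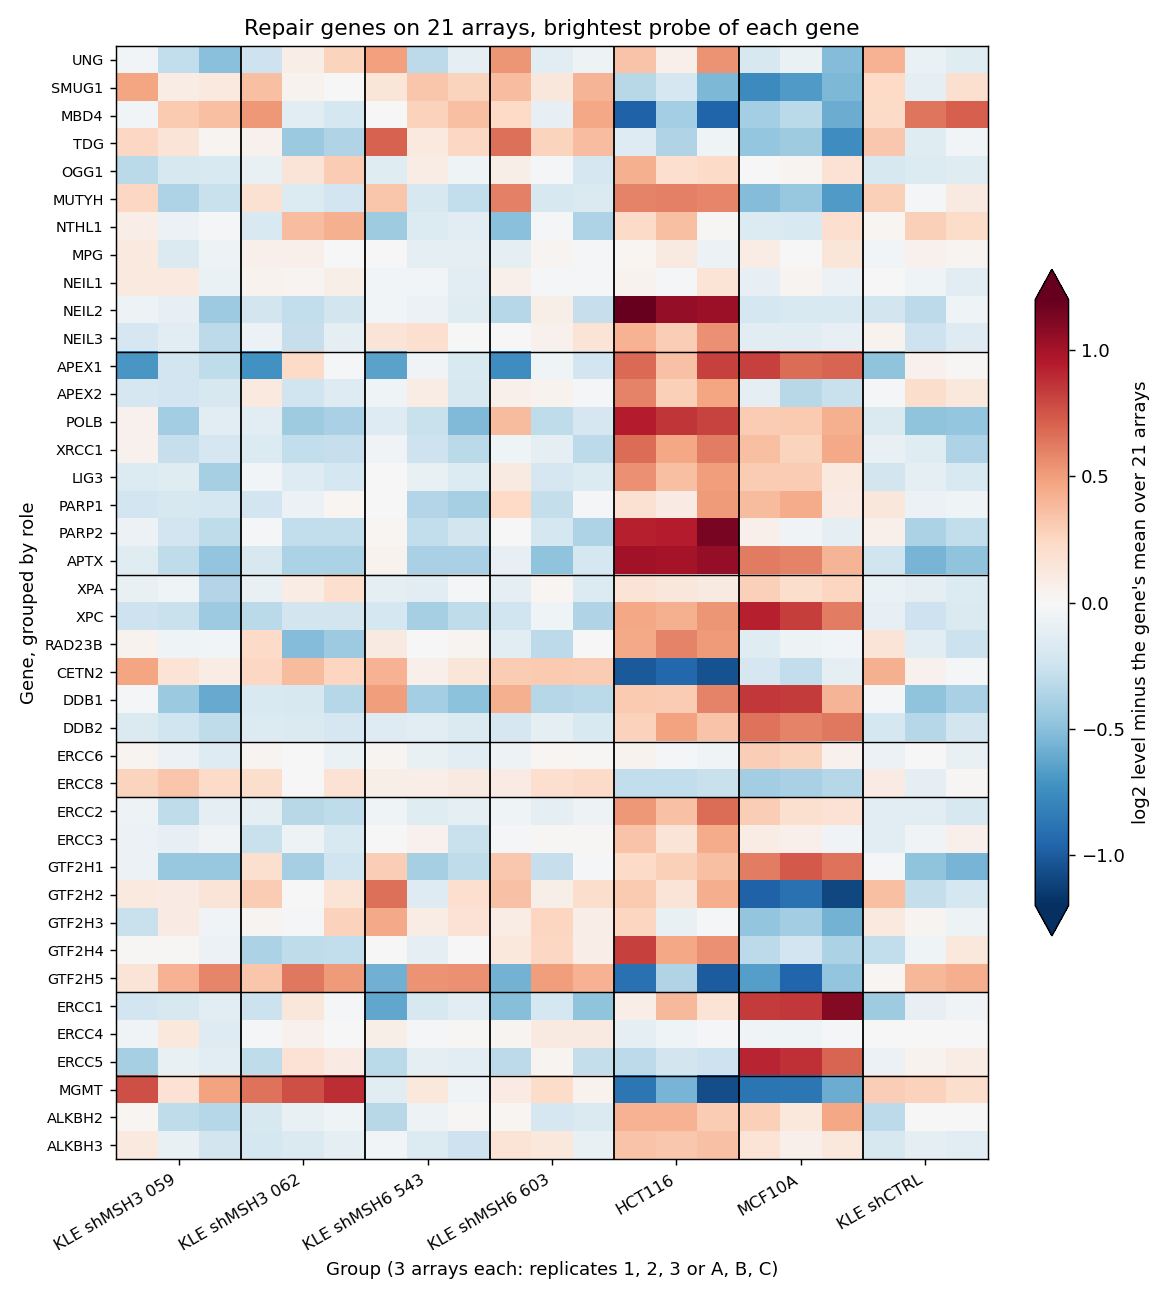
Heat map of the 40 repair genes (rows, grouped by role) on 21 arrays (columns, 3 per group). Colour is the log2 level minus the mean of the gene over the 21 arrays, so it compares arrays within a gene and not genes with each other. The strong colours lie in the HCT116 and MCF10A columns, and the KLE columns are pale apart from a few genes such as MGMT, TDG, APEX1 and GTF2H5. As 15 of the 21 arrays are KLE, the mean lies nearer the KLE levels, which by itself makes the KLE columns paler.

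The levels of these genes lay further apart between the lines than between the KLE groups. The spans and the order of the lines below were taken for the 40 genes only. Among all tested genes, too, 41.5% to 54.7% were called between lines, and 1.06% to 6.92% with a hairpin against shCTRL. Between the lowest and the highest mean of the 3 lines, the log2 levels spanned a median of 0.72 over the 40 genes (0.063 to 1.45), whereas between the 5 KLE groups they spanned a median of 0.25 (0.045 to 0.79). KLE shCTRL had the lowest mean of the lines for 24 genes, MCF10A for 10 and HCT116 for 6. HCT116 had the highest mean for 21 genes, MCF10A for 11 and KLE shCTRL for 8.

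HCT116 had more transcript of most of these genes than KLE shCTRL: 23 were higher and 7 lower (57.5% and 17.5% of the 40), where 29.3% and 25.4% of all tested genes were higher and lower. In all, 30 genes were called (75% of the list, against 54.7% of all tested genes). The median log2 change over the 40 was 0.38, against 0.024 over all genes tested. These counts use the brightest probes; of 16 other probes of the called genes, 7 gave the same call and 0 the opposite. Of the 8 genes that act after the glycosylase, 7 rose, the exception being PARP1 (0.26, adjusted p = 0.10); their median was 0.77, and it lay between 0.77 and 0.97 under the 4 scalings tried.

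APTX, which removes abortive ligation products from DNA ends, had log2 levels of 10.08, 10.07 and 10.13 in HCT116, against 8.83, 8.51 and 8.59 in KLE shCTRL. Every HCT116 array lay more than 1 log2 unit above every KLE shCTRL array, and the difference was 2.73-fold (log2 1.45, SE 0.091, adjusted p = 1.1e-06). A second APTX probe gave 1.34. POLB, the gap-filling polymerase, had 9.88, 9.80 and 9.76 in HCT116, against 8.77, 8.46 and 8.48 in KLE shCTRL. It was higher in all 3 HCT116 arrays, by 2.37-fold (SE 0.089, adjusted p = 2.7e-06). PARP2, a break sensor, had 9.58, 9.59 and 9.78 in HCT116, against 8.71, 8.27 and 8.35 in KLE shCTRL. The groups were again apart (2.31-fold, SE 0.11, adjusted p = 1.8e-05), and its second probe rose by 0.65. The scaffold XRCC1 was 1.73-fold higher (SE 0.093, adjusted p = 7.2e-05) and APEX1, the main endonuclease of the empty site, 1.69-fold (SE 0.16, adjusted p = 0.0025). For APEX1 the lowest HCT116 array had 10.84 and the highest KLE shCTRL array 10.54.

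Among the 11 glycosylases, 4 rose and 2 fell, so 54.5% were called, against 54.7% of all tested genes. NEIL2, which removes oxidised pyrimidines, had 8.86, 8.71 and 8.68 in HCT116, against 7.43, 7.34 and 7.60 in KLE shCTRL. It was 2.45-fold higher (SE 0.079, adjusted p = 9.1e-07), and MCF10A lay with KLE at 7.45, 7.47 and 7.47. MBD4, which removes thymine and uracil opposite guanine at CpG sites, ran the other way, with 8.81, 9.37 and 8.82 in HCT116, against 10.01, 10.42 and 10.49 in KLE shCTRL. That is 0.405 of the KLE level (log2 -1.31, SE 0.17, adjusted p = 0.00015), the largest fall of the list here. SMUG1, a uracil glycosylase, fell to 0.726 of it (SE 0.12, adjusted p = 0.0076).

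The damage recognition genes of nucleotide excision were higher except CETN2, the centrin that stabilises XPC: 5 of 6 rose, where 29.3% of all tested genes did. CETN2 had 10.05, 10.11 and 10.01 in HCT116, against 11.48, 11.11 and 11.05 in KLE shCTRL. All HCT116 arrays were lower, at 0.448 of the KLE level (SE 0.11, adjusted p = 1.7e-05). GTF2H5, the smallest TFIIH subunit, had 9.95, 10.49 and 9.86 in HCT116, against 10.88, 11.25 and 11.29 in KLE shCTRL. It too was lower without overlap, at 0.487 (SE 0.19, adjusted p = 0.0011), while 4 of the other 6 TFIIH subunits rose. ERCC8 fell to 0.821 (SE 0.065, adjusted p = 0.0042), and a second ERCC8 probe did not pass (-0.16, adjusted p = 0.33) while another fell. MGMT, the methyltransferase that reverses O6-alkylguanine, had 8.11, 8.41 and 7.90 in HCT116, against 9.27, 9.25 and 9.18 in KLE shCTRL. The KLE arrays were close together and all above HCT116, which reached 0.468 of their level (SE 0.13, adjusted p = 6e-05).

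**Figure D2:**
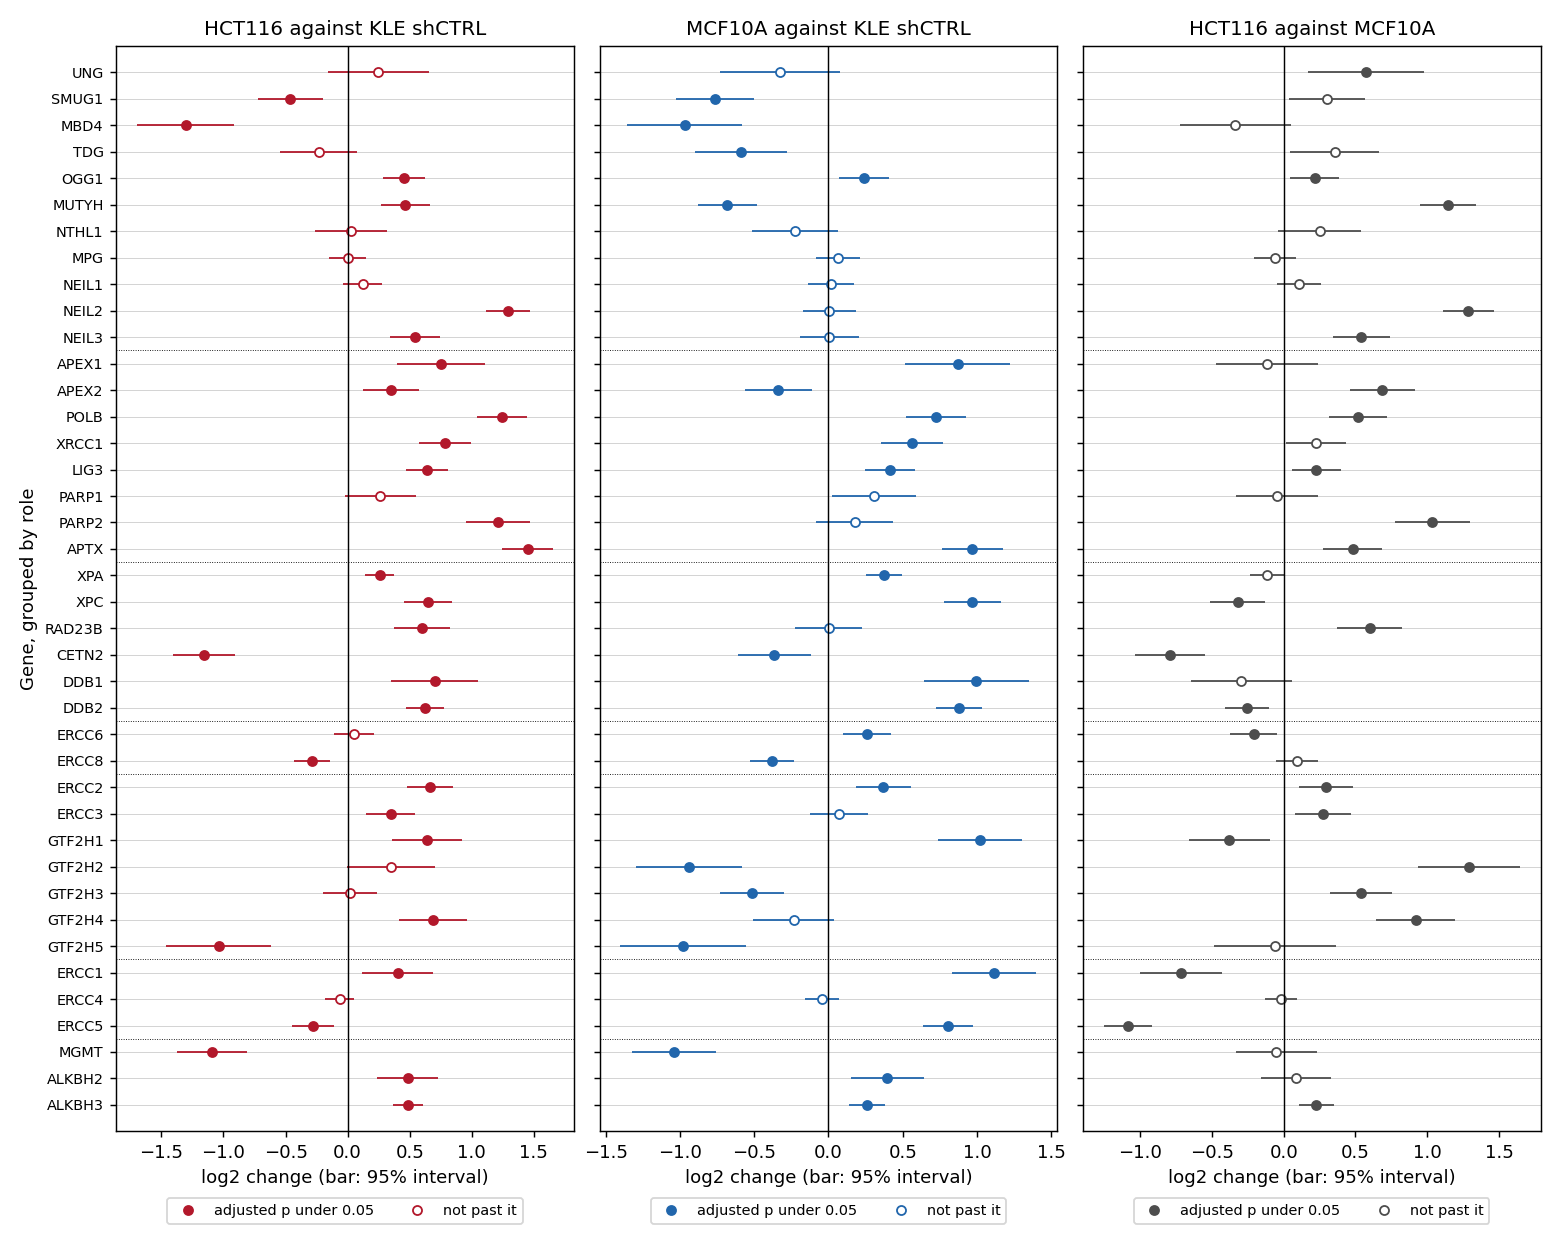
Log2 changes of the 40 genes (rows, grouped by role) in HCT116 against KLE shCTRL (left), MCF10A against KLE shCTRL (middle) and HCT116 against MCF10A (right), 3 arrays per line. Points are limma estimates, bars 95% intervals, and filled points passed the adjusted p of 0.05; in the left panel the genes after the glycosylase lie right of 0, and MGMT, MBD4 and GTF2H5 lie left of it in the left and middle panels.

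In MCF10A the same test called 28 genes against KLE shCTRL, 17 higher and 11 lower (42.5% and 27.5% of the list), where 26.9% and 26.1% of all tested genes were higher and lower, and 53% were called. The median of the list was 0.066, against 0.011 over all genes. Of 15 other probes of the called genes, 9 gave the same call and 0 the opposite. With median scaling the split was 16 higher and 6 lower, and with the values as deposited 11 and 4. Under these scalings 42.3% and 28.7% of all tested genes were called. Both line comparisons use the KLE shCTRL arrays, so their agreement is not independent.

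The 17 rises of MCF10A were 9 of 18 nucleotide excision genes, 6 of 19 base excision genes and 2 of 3 direct repair genes. In the same order 5, 5 and 1 fell. Of all tested genes 26.9% rose and 26.1% fell. ERCC1, which pairs with ERCC4 to cut 5′ of the lesion, had 8.96, 8.97 and 9.22 in MCF10A, against 7.69, 8.02 and 8.08 in KLE shCTRL. It was 2.17-fold higher (SE 0.13, adjusted p = 5.6e-05), and 2 of its 3 other probes also rose while ILMN_1797172 did not (-0.08, adjusted p = 0.36). GTF2H1, a TFIIH core subunit, had 8.66, 8.79 and 8.70 in MCF10A, against 8.03, 7.57 and 7.49 in KLE shCTRL. The groups were apart (2.03-fold, SE 0.13, adjusted p = 0.00011). XPC, DDB1 and DDB2, which find the lesion, all rose. XPC had 9.36, 9.26 and 9.04 in MCF10A, against 8.33, 8.17 and 8.25 in KLE shCTRL (1.96-fold, SE 0.085, adjusted p = 1.1e-05). DDB1 had 12.61, 12.60 and 12.16 in MCF10A, against 11.74, 11.28 and 11.37 in KLE shCTRL (1.99-fold, SE 0.16, adjusted p = 0.0005). None of these arrays overlapped, but 2 dim DDB1 probes did not pass (0.12 and 0.17). DDB2, read near background in KLE, had 7.81, 7.75 and 7.78 in MCF10A, against 6.94, 6.81 and 6.93 in KLE shCTRL (1.84-fold, SE 0.068, adjusted p = 4.5e-06). The KLE arrays of DDB2 sat at the array median, so this fold is understated. APTX, from base excision, was 1.96-fold higher than in KLE shCTRL (SE 0.091, adjusted p = 1.7e-05).

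MGMT had 8.10, 8.10 and 8.38 in MCF10A, against 9.27, 9.25 and 9.18 in KLE shCTRL, so all 3 arrays were lower. In HCT116 against MCF10A it differed by -0.05 (95% interval -0.34 to 0.23, adjusted p = 0.79). Its MCF10A level was 0.486 of that in KLE shCTRL (SE 0.13, adjusted p = 8.9e-05). GTF2H5 reached 0.508 of it (SE 0.19, adjusted p = 0.0017) and MBD4 0.511 (SE 0.17, adjusted p = 0.0011). Of the 11 glycosylases 4 were lower and 1 higher, so 45.5% were called, against 53% of all tested genes. With the values as deposited 1 was lower and 0 higher, where 28.7% of all tested genes were called. SMUG1 had 8.62, 8.71 and 8.85 in MCF10A, against 9.62, 9.27 and 9.58 in KLE shCTRL (0.59 of the level, SE 0.12, adjusted p = 0.00044). MUTYH, which removes adenine opposite oxidised guanine, had 7.83, 7.90 and 7.67 in MCF10A, against 8.64, 8.34 and 8.46 in KLE shCTRL. The arrays were apart at 0.624 of the level (SE 0.087, adjusted p = 0.00013). Of its 2 other probes 1 fell (-0.31, adjusted p = 0.0034) and 1 did not pass (-0.08, adjusted p = 0.41). GTF2H2, a TFIIH subunit, had 7.66, 7.74 and 7.54 in MCF10A, against 8.99, 8.34 and 8.42 in KLE shCTRL. It was 0.522 of the KLE level (SE 0.16, adjusted p = 0.00078), with the reserve that the gene lies among near-identical copies, whose transcripts a probe may not tell apart.

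HCT116 and MCF10A, which share no control arrays, were compared directly. Of the 40 genes, 17 were higher in HCT116 and 7 lower (42.5% and 17.5%), where 22.6% and 18.9% of all tested genes were higher and lower; 24 genes or 60% were called in all, against 41.5% of all tested genes. The median was 0.22, against 0.017 over all genes. Of 13 other probes of the called genes, 6 gave the same call and 2 the opposite. With median scaling the split was 12 higher and 3 lower, and with the values as deposited 6 and 2. Under these scalings 31.7% and 20.5% of all tested genes were called. On their brightest probes the base excision genes that passed were higher in HCT116, 5 of 11 glycosylases and 5 of 8 later genes, though UNG, 1 of these glycosylases, was called lower on another probe. In nucleotide excision, 1 recognition gene was higher and 3 lower (none passed with the values as deposited), and 5 TFIIH subunits were higher and 1 lower. The nucleases ERCC1 and ERCC5 were lower on their brightest probes, but ERCC1 was called higher on another probe.

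NEIL2 stood 2.44-fold higher in HCT116 than in MCF10A (SE 0.079, adjusted p = 1.3e-06). MUTYH had 8.95, 8.95 and 8.94 in HCT116, against 7.83, 7.90 and 7.67 in MCF10A (2.21-fold, SE 0.087, adjusted p = 5.8e-06). Its arrays were more than 1 log2 unit apart on this probe. GTF2H2 was 2.44-fold higher (SE 0.16, adjusted p = 0.00013) and PARP2 2.05-fold (SE 0.11, adjusted p = 7.2e-05). GTF2H4, a TFIIH subunit, had 9.13, 8.78 and 8.86 in HCT116, against 8.0, 8.08 and 7.93 in MCF10A (1.89-fold, SE 0.12, adjusted p = 0.00022). APEX2, a second endonuclease of the empty site, was 1.61-fold higher (SE 0.1, adjusted p = 0.0004).

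ERCC5, which cuts 3′ of the lesion, had 7.73, 7.83 and 7.80 in HCT116, against 8.96, 8.92 and 8.74 in MCF10A. It was the largest fall, to 0.471 of the MCF10A level (SE 0.075, adjusted p = 2.8e-06). CETN2 was at 0.577 (SE 0.11, adjusted p = 0.00028) and ERCC1 at 0.609 of MCF10A (SE 0.13, adjusted p = 0.0013). For ERCC1 the probe ILMN_1797172 was called the opposite way (0.39, adjusted p = 0.0016), so its direction depends on the probe, and the same held for UNG, a uracil glycosylase, with 0.57 on its brightest probe and -0.23 on ILMN_1722769 (adjusted p = 0.028 and 0.017). XPC (0.802), DDB2 (0.837) and GTF2H1 (0.77) also fell, with SEs of 0.085, 0.068 and 0.13 and adjusted p of 0.013, 0.013 and 0.037. These calls were less firm: XPC lost its call without MCF10A replicate 1 (-0.25), DDB2 without HCT116 replicate 1 or MCF10A replicate 1 (changes of -0.31 to -0.21 over all 9), and GTF2H1 without any 1 of the 6 arrays compared (-0.41 to -0.34).

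The other genes of the list that passed between lines were as follows. TDG fell to 0.665 of the KLE shCTRL level in MCF10A, and NEIL3 was 1.46-fold higher in HCT116 than in KLE shCTRL and 1.45-fold higher than in MCF10A. ALKBH2 and ALKBH3, dioxygenases that remove methyl groups from bases, were 1.4-fold and 1.4-fold higher in HCT116, and 1.32-fold and 1.2-fold higher in MCF10A, than in KLE shCTRL. The verification factor XPA rose in both by 1.2-fold and 1.3-fold, the ligase LIG3 by 1.56-fold and 1.33-fold, and OGG1, the glycosylase for oxidised guanine, by 1.37-fold and 1.18-fold. The TFIIH helicase ERCC2 rose by 1.58-fold in HCT116 and 1.29-fold in MCF10A, near background. RAD23B, a partner of XPC, rose only in HCT116 among these comparisons with KLE (1.52-fold), as did the helicase ERCC3 (1.27-fold), and GTF2H3 fell to 0.699 in MCF10A. ERCC6 was 1.2-fold higher in MCF10A. PARP1, NTHL1, MPG, NEIL1 and ERCC4 passed in none of the 3 comparisons of lines, and the last 3 were read near background.

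Genes of the same pathways outside the 40 were read from a fixed list. Of all tested genes, 29.3% rose and 25.4% fell in HCT116 against KLE shCTRL, and 26.9% and 26.1% in MCF10A. Of the other base excision genes, 11 of 12 were tested, and 5 rose and 2 fell in HCT116 against KLE shCTRL. The rises were FEN1 (0.81), which trims flaps, HMGB1 (0.73), PCNA (0.72), LIG1 (0.40) and POLE (0.40), and the falls were TDP1 (-1.62), which removes trapped topoisomerase from DNA ends, and POLL (-0.33). In MCF10A against KLE shCTRL, 1 rose and 2 fell. Of the other nucleotide excision genes, 18 of 19 were tested. In HCT116 against KLE shCTRL 11 rose and 2 fell, with RFC5 (1.64), RPA1 (1.27) and XAB2 (1.19) among the rises and MNAT1 (-0.77) and RPA2 (-0.48) the falls, and in MCF10A against KLE shCTRL 6 rose and 6 fell.

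Proliferation markers moved in the same comparisons. In HCT116 12 of 15 were higher and 1 lower than in KLE shCTRL, with a median change of 0.83, and the mean log2 level of the list was 10.43 to 10.76 in HCT116, against 9.85 to 9.91 in KLE shCTRL. In MCF10A 2 were higher and 4 lower, and the mean was 9.73 to 9.87. DDB2 and XPC are known p53 targets. Of 11 other p53 targets, 8 were higher and 1 lower in MCF10A than in KLE shCTRL. Their median change was 0.93 and that of CDKN1A 3.91, and the mean log2 level was 8.80 to 8.91 in MCF10A, against 7.78 to 7.98 in KLE shCTRL. In HCT116 against KLE shCTRL 4 rose and 2 fell, with CDKN1A at 2.97. The part of either list in the differences of the repair genes was not tested.

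Within KLE, few of these transcripts differed past the test between a hairpin and shCTRL. No gene of the 40 passed with hairpin 059, 062 or 543, where 1.48%, 1.29% and 1.06% of all tested genes passed in limma's test; 5, 6 and 7 had an unadjusted p under 0.05, and the lowest adjusted p were 0.088, 0.086 and 0.10. With hairpin 059 7 genes were lower with median scaling and 8 with the values as deposited, where the median of all genes was -0.14 and -0.30. Under these scalings 7.23% and 10.5% of all tested genes were called. With hairpin 603, 3 genes passed (7.5%, against 6.92% of all genes), 2 higher and 1 lower where 3.1% and 3.83% of all genes were, and 11 had an unadjusted p under 0.05. The 95% interval of the change lay within 1 log2 unit of 0 for all 40 genes with each hairpin. It lay within 0.5 for 36 genes with 059, 36 with 062, 35 with 543 and 32 with 603 (SE 0.055 to 0.21). No gene passed with both hairpins of a target, as 0.345% of all genes did for MSH3 and 0.656% for MSH6. All 4 comparisons use the same shCTRL arrays.

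**Figure D3:**
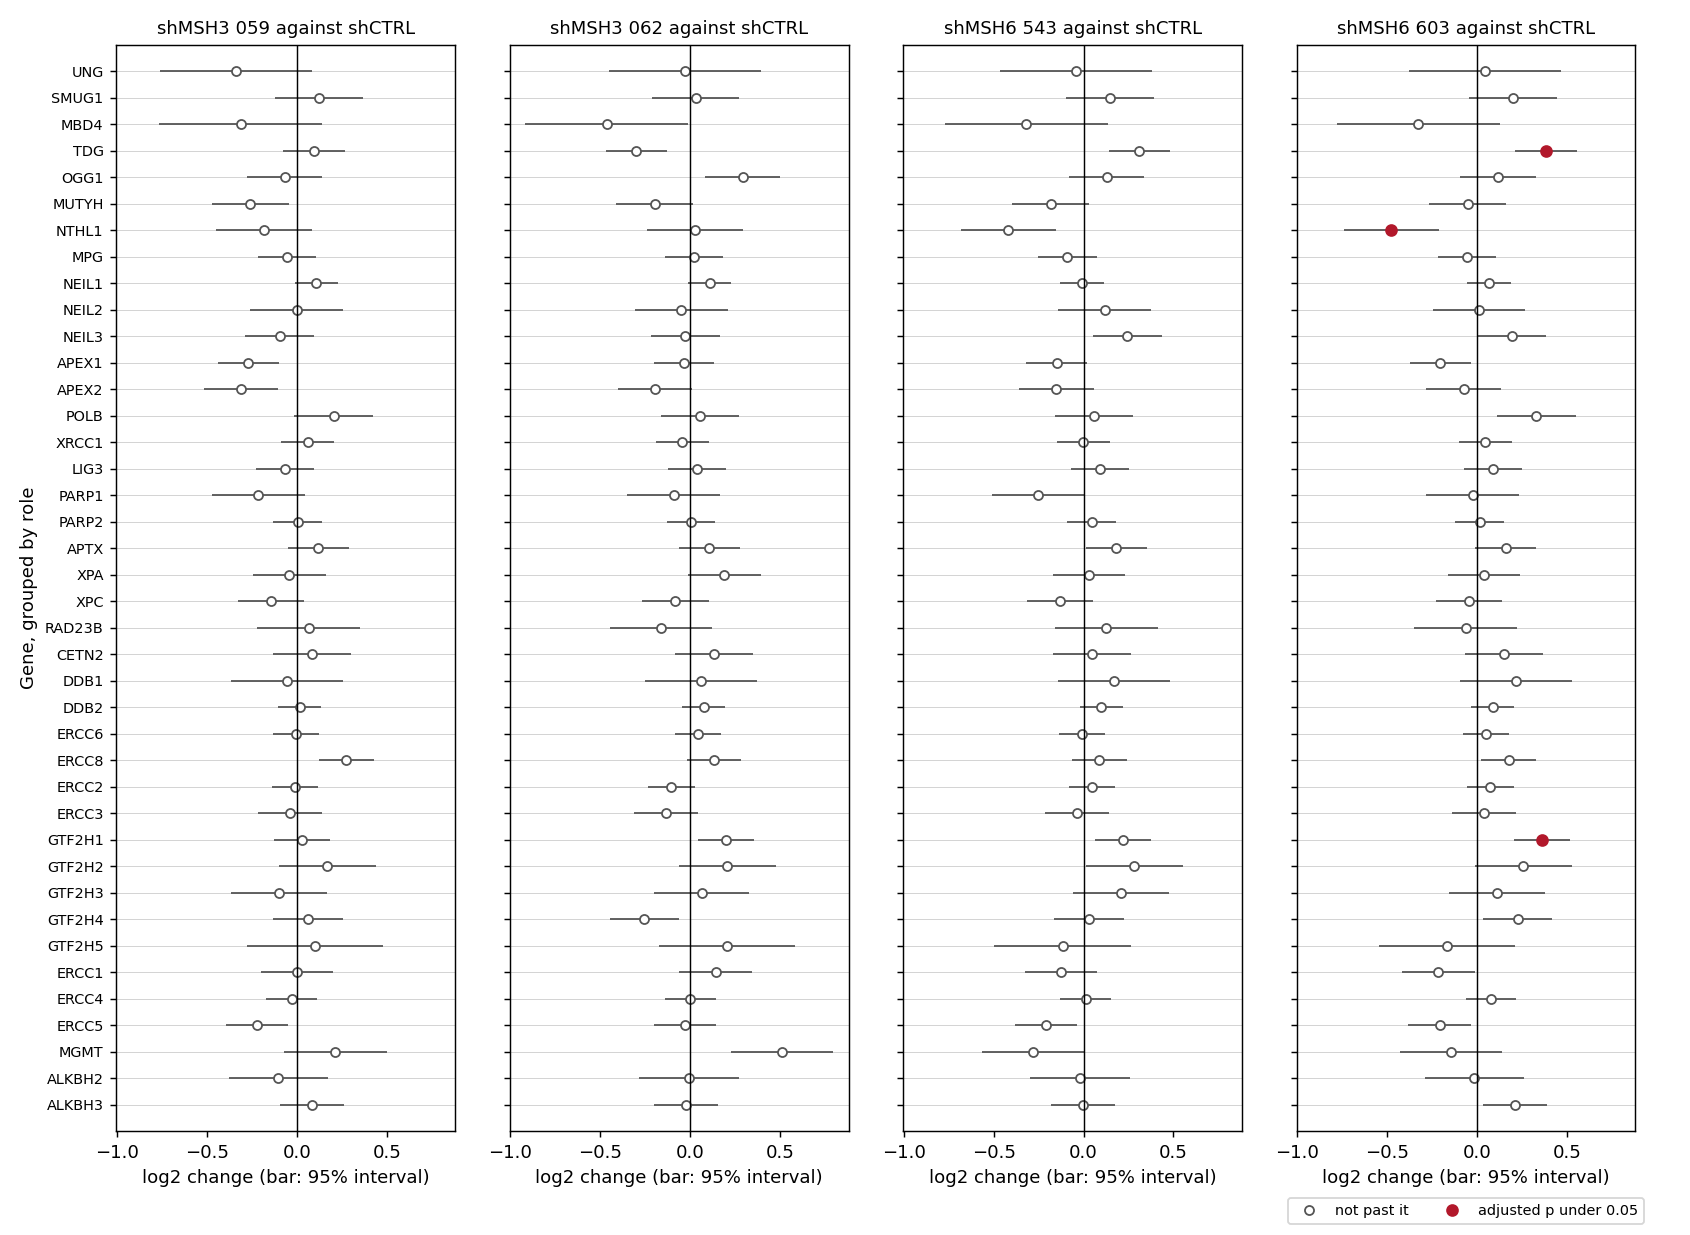
Log2 changes of the 40 genes (rows, grouped by role) with each hairpin against shCTRL in KLE cells, 3 arrays per group, with the letter as a block. Points are limma estimates and bars 95% intervals; the filled points, TDG, NTHL1 and GTF2H1 with hairpin 603, passed the adjusted p of 0.05, and no bar reaches 1 log2 unit.

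TDG, the glycosylase that removes thymine opposite guanine, had 11.20, 10.80 and 10.91 with hairpin 603 in arrays A, B and C, against 10.86, 10.39 and 10.51 with shCTRL. The groups overlapped through array A of shCTRL, but 603 was higher in each letter (1.3-fold, log2 0.38, SE 0.078, adjusted p = 0.012). With hairpin 543 TDG changed by 0.31 (adjusted p = 0.10), with 062 by -0.30 (adjusted p = 0.093) and with 059 by 0.10 (adjusted p = 0.68). GTF2H1 had 8.38, 7.78 and 8.03 with 603, against 8.03, 7.57 and 7.49 with shCTRL. It overlapped in the same way and was 1.29-fold higher (log2 0.36, SE 0.071, adjusted p = 0.01). NTHL1, a glycosylase for oxidised pyrimidines, had 7.94, 8.42 and 8.08 with 603, against 8.47, 8.73 and 8.67 with shCTRL. All 3 arrays of 603 were lower, at 0.719 of the shCTRL level (log2 -0.48, SE 0.12, adjusted p = 0.038).

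These calls were near the threshold. Without the letter as a block none of the 3 passed, and without replicate C of 603 none did either. TDG also lost its call without shCTRL replicate B (0.36 to 0.40 over all 15 arrays left out), GTF2H1 without shCTRL replicate C (0.31 to 0.42) and NTHL1 without any of 9 arrays (-0.58 to -0.39): A, B or C of shCTRL, A or C of 603, B or C of 543, C of 059 and B of 062. The second TDG probe, ILMN_1782331, changed by -0.28 with 603 (adjusted p = 0.45), and that of GTF2H1 by 0.21 (adjusted p = 0.25). On the values as deposited the change of TDG was -0.055, where the median of all genes with 603 was -0.21.

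The MSH3 hairpins were also set against the MSH6 hairpins, where the shCTRL arrays enter only through the spread and the letter block of the shared fit. In this comparison 6 genes passed (15%, against 9% of all tested genes), 3 higher and 3 lower with the MSH3 hairpins (7.5% each, against 4.05% and 4.96%). With median scaling 1 passed, which was higher, and with the values as deposited 0 passed. Under these scalings 1.12% and 0.392% of all tested genes passed. The SE of this contrast leaves out the difference between hairpins of 1 target. MGMT rose and was the largest change. Its log2 levels were 9.75, 9.15 and 9.45 with hairpin 059 and 9.62, 9.75 and 9.86 with 062, against 8.83, 9.10 and 8.93 with 543 and 9.07, 9.19 and 9.01 with 603. Of the MSH3 hairpin arrays only B of 059 fell within the range of the MSH6 hairpins. The shCTRL arrays had 9.27, 9.25 and 9.18, and C of shCTRL was also within that range. The difference was 1.49-fold (log2 0.57, SE 0.092, adjusted p = 0.0037). Against shCTRL, MGMT changed by 0.51 with 062 (adjusted p = 0.086), 0.22 with 059 (adjusted p = 0.54), -0.28 with 543 (adjusted p = 0.42) and -0.14 with 603 (adjusted p = 0.60). NTHL1 was 1.29-fold higher with the MSH3 hairpins (SE 0.086, adjusted p = 0.022) and ERCC1 1.18-fold (SE 0.065, adjusted p = 0.039), and none of the 3 other ERCC1 probes passed (0.00 to 0.13, lowest adjusted p 0.38).

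TDG fell, with 10.78, 10.69 and 10.57 in 059 and 10.59, 10.09 and 10.18 in 062, against 11.25, 10.66 and 10.78 in 543 and 11.20, 10.80 and 10.91 in 603. The ranges overlapped, but in each letter the MSH3 mean was the lower (0.733 of the MSH6 level, log2 -0.45, SE 0.055, adjusted p = 0.00088). Its second probe gave -0.08 (adjusted p = 0.80). The hairpins of MSH3 themselves differed in TDG, 059 being 1.32-fold above 062 (log2 0.40, SE 0.078, adjusted p = 0.031), the only gene of the 40 to do so (2.5%, against 1.5% of all genes). That call was lost without B or C of 059, B or C of 062, C of shCTRL or C of 543 (0.29 to 0.49 over all 15). NEIL3, which removes oxidised bases in dividing cells, had 7.55, 7.61 and 7.44 with 059 and 7.68, 7.48 and 7.64 with 062, against 7.91, 7.95 and 7.75 with 543 and 7.75, 7.80 and 7.91 with 603. Its MSH3 and MSH6 arrays did not overlap (0.824, SE 0.062, adjusted p = 0.018), and its second probe gave 0.00. The other called genes of the list did overlap, but the share of all tested genes without overlap was not taken. GTF2H4 was at 0.855 (SE 0.063, adjusted p = 0.046), with 8.33, 8.33 and 8.24 in 059 and 7.93, 8.0 and 8.02 in 062, against 8.30, 8.20 and 8.31 in 543 and 8.44, 8.56 and 8.39 in 603. Hairpin 062 alone was low, and 059 overlapped 543. Between the hairpins of MSH6 no gene of the list passed (3.67% of all genes did), and 3 had an unadjusted p under 0.05.

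**Figure D4:**
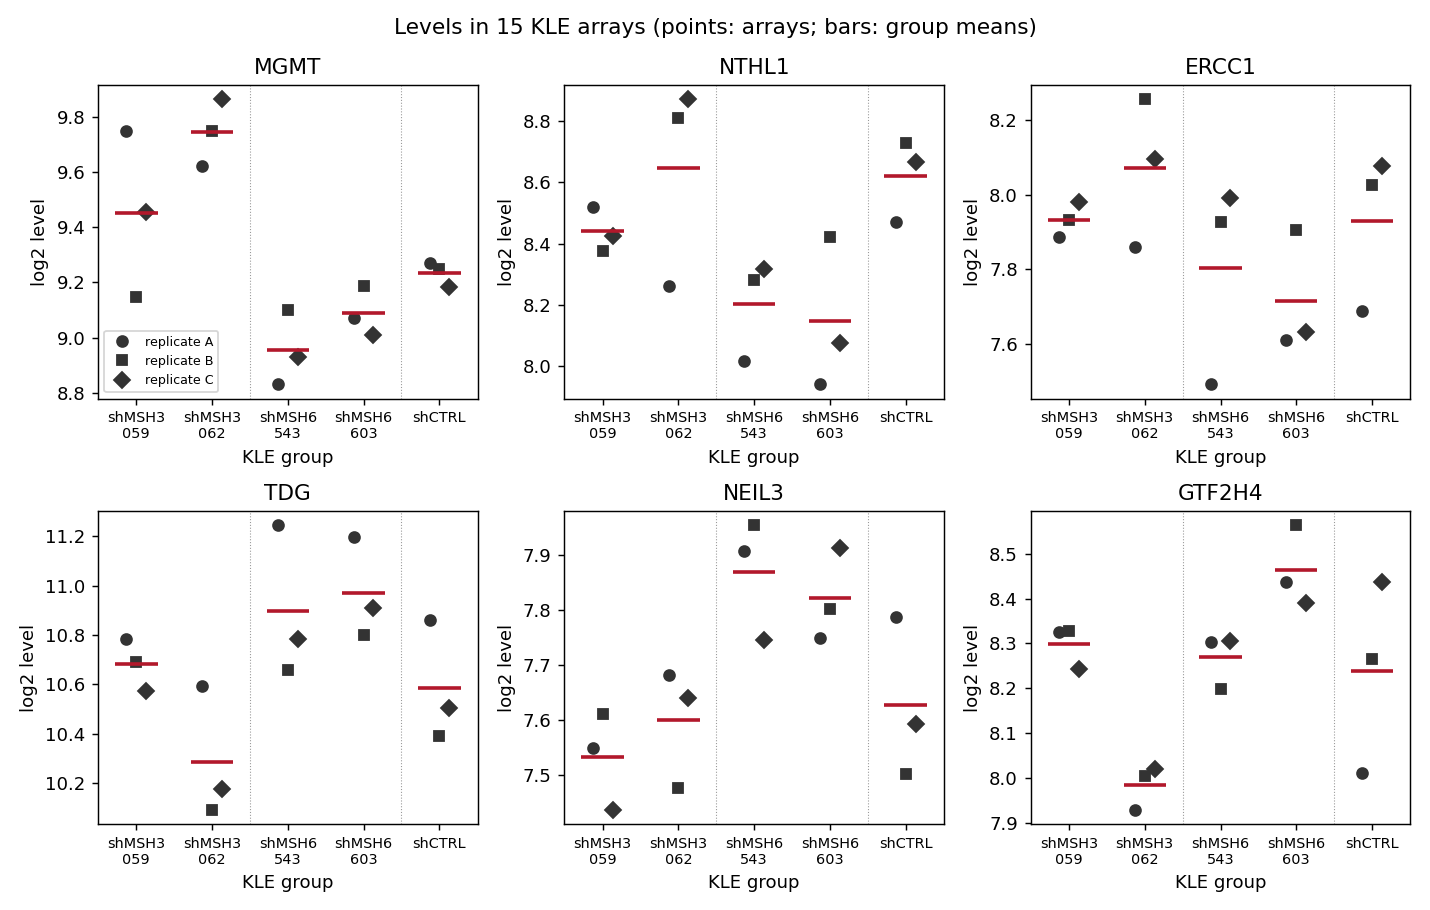
Log2 levels of the 6 genes that passed between the MSH3 and MSH6 hairpins, in the 15 KLE arrays. Points are arrays, with the shape giving the letter A, B or C, and bars are means of 3; MGMT is highest with hairpins 059 and 062, GTF2H4 is low with 062 and not with 059, and in TDG and NTHL1 the arrays of letter A lie to one side in most groups.

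By single pairs of hairpins, a test chosen after seeing the data, no gene of the 40 passed in all 4 pairs (0.284% of all genes did). Between 062 and 603, 5 passed (10.6% of all genes): TDG, MGMT, GTF2H4, NTHL1 and ERCC1. Between 062 and 543, TDG and MGMT passed (4.16% of all genes), between 059 and 603 only GTF2H1 (4.71%), and between 059 and 543 none (1.57%). MGMT was 0.79 and 0.65 higher with 062 than with 543 and 603, and 0.50 and 0.36 higher with 059, the second pair of values with adjusted p of 0.09 and 0.15. MGMT and TDG kept their calls in the main comparison on leaving out any 1 of the 15 arrays. NEIL3 lost its call without C of 059, B of 543 or C of 603 (-0.32 to -0.24 over all 15), and NTHL1 without B or C of 062, B of 543 or C of 603 (0.29 to 0.44). ERCC1 lost it without 9 of the 15, the arrays it kept it without being A of shCTRL, B of 059, A of 062, C of 543 and A and B of 603 (0.20 to 0.28). GTF2H4 lost it without 12, all but A and C of shCTRL and A of 059 (-0.26 to -0.20). Without the letter as a block 2 genes passed, MGMT and NEIL3.

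More of these genes passed between the letters, a contrast of 5 against 10 arrays, than with any hairpin. In A against B and C, 12 genes were higher and 5 lower (30% and 12.5%), where 23.4% and 16.5% of all genes were higher and lower; 42.5% of the list and 40% of all genes were called. The split depends on the scaling, since it was 27 and 0 with median scaling and 32 and 0 with the values as deposited, under which all genes shifted by a median of 0.15 and 0.28. Under these scalings 53% and 58.2% of all tested genes were called. DDB1 (0.54), MUTYH (0.51) and GTF2H1 (0.50) were the largest rises, and GTF2H5 (-0.62) and APEX1 (-0.58) the largest falls. For DDB1 and TDG a second probe was called the opposite way (-0.45 for DDB1, and -1.07 for TDG against 0.38 on its brightest). What the letter stands for is not given in the sources used here.

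Without the 5 arrays of letter A, a choice made after seeing the data, a larger share of all tested genes passed in each of the 7 hairpin comparisons, and the count of the list rose in all but 543 against 603. With hairpin 059 6 of the 40 passed (13.1% of all genes), with 062 9 (18.1%), with 543 3 (5.87%) and with 603 9 (18.5%). Between the MSH3 and MSH6 hairpins 7 passed (18.4%), the 6 named above and SMUG1 (-0.23, adjusted p = 0.039). TDG, GTF2H1 and NTHL1 also passed again with 603, with changes of 0.41, 0.37 and -0.45. NTHL1 fell with 543 too (-0.40, adjusted p = 0.030), so it passed with both MSH6 hairpins here. APEX2, GTF2H2 and MUTYH passed with both MSH3 hairpins. The share of all genes that passed with both hairpins of a target was not taken without letter A. MGMT rose with 062 (0.59, SE 0.11, adjusted p = 0.0022) and MBD4 fell with 062 (-0.84, SE 0.12, adjusted p = 0.00045) and with 603 (-0.49, adjusted p = 0.012). MUTYH fell with 059, 062 and 543 (-0.37, -0.24 and -0.29, adjusted p = 0.0093, 0.048 and 0.047). GTF2H2 rose with 059, 062 and 603 (0.37, 0.34 and 0.39, adjusted p = 0.011, 0.013 and 0.0053). APEX2 fell with 059 and 062 (-0.38 and -0.36), while CETN2 rose with 062 and 603 (0.29 and 0.28) and ERCC8 with 059 and 603 (0.33 and 0.27). All these comparisons share the 2 shCTRL arrays left. Between hairpins 059 and 062 11 genes passed (14.3%), and between 543 and 603 none (9.08%). These fits hold 2 arrays a group.

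Few of the 31 other pathway genes tested passed with a single hairpin. With 059 only FEN1 fell (-0.44), with 062 only PARP3 rose (0.53), with 543 none of the other pathway genes passed, and with 603 the clamp loader genes RFC4 (0.25) and RFC5 (0.33) rose. Between the MSH3 and MSH6 hairpins PARP3 was higher (0.29) and FEN1 (-0.32), RFC1 (-0.26), RFC2 (-0.29), RFC5 (-0.32) and ALKBH1 (-0.34) lower with the MSH3 hairpins, 6 of 31 (19.4%, against 9% of all tested genes). Of 15 proliferation markers 4 were also lower there and none higher, and the mean log2 level of that list was 9.59 to 9.80 with 059 and 9.73 to 9.87 with 062, against 9.81 to 10.06 with 543 and 9.85 to 10.04 with 603. The 5 fibroblast markers averaged 7.08 to 7.16 with 059 and 7.05 to 7.22 with 062, against 6.96 to 6.98 with 543 and 6.91 to 6.92 with 603, where the array median is 6.92. Of these, DCN averaged 7.77 with 059 and 8.22 with 062, against 7.34 with 543 and 7.10 with 603, and COL1A2, PDGFRB and THY1 were near background in every KLE group. The part of either list in the differences of the repair genes was not tested.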

How the data were processed

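Total RNA of 21 cultured cell samples, 7 groups of 3, was read on 1-colour BeadChips. The deposited values are probe intensities on a linear scale, exported from GenomeStudio, whose version is not given, per the submitters' processing notes; no background subtraction or normalization shows in the deposited intensity values. All 21 columns were used. Of 47323 probes, 30113 name 1 gene by the platform annotation, 8 several and 17202 none; a RefSeq gene table changed no symbol. Values were taken as log2(value + 16) and quantile-normalized. A fit kept probes that exceeded the array median on 3 or more of its arrays, and the brightest probe of a gene was used. limma 3.58.1 (R 4.3.3) was fitted to the 15 KLE arrays with the replicate letter as a block, and to the 9 control arrays of the lines without one. Pairing the KLE arrays by letter was a choice, since the titles give the letter but state no pairing. The lowest residual correlation between arrays of 1 letter was 0.40. These correlations set A apart but not B from C (median 0.53 between them). The lines share only a number. On simulated data 83% of log2 changes of 0.5 and 95% of changes of 1 were recovered for hairpin 603 against shCTRL, and 76% and 95% for HCT116 against KLE shCTRL, over 20046 genes. The simulation had independent normal noise and no filter, and added the full change to genes drawn at random, dim ones included. These shares therefore need not hold for the measured genes, whose folds background can shrink. Genes are named by a rule: every gene of the list called in a KLE hairpin comparison, and up to 6 rises and 6 falls per pair of lines; the genes named for the letter, and without letter A, were chosen after their values were seen. The 40 genes and the other gene lists were chosen with earlier results of these data known. Alternatives were median scaling, values as deposited, normexp (offset 50), a pseudocount of 1, no filter, every probe, only the groups compared, the block and leaving out each array. The array number limits the precision. Some genes of the other lists are not reported here.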

Additional observations from a re-analysis of the deposited data

How the results depend on the processing

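Counts of the 40 genes called are given, with shares of all tested genes for the scalings, without letter A and for the pairs. A count without such a share cannot be set against the general rate. With median scaling they were 7 for hairpin 059, 1 for MSH3 against MSH6 hairpins, 0 for 059 against 062, 27 for letter A and 15 for HCT116 against MCF10A. In the same order, 7.23%, 1.12%, 0.203%, 53% and 31.7% of all tested genes were called. With the values as deposited they were 8 for 059, 1 for 603, 0 for MSH3 against MSH6 hairpins and 0 for 059 against 062. They were 32 for letter A, 15 for MCF10A against KLE shCTRL and 8 for HCT116 against MCF10A. In the same order, 10.5%, 4.49%, 0.392%, 0.0811%, 58.2%, 28.7% and 20.5% of all tested genes were called. On these values TDG with 603 turned to -0.055. With only the groups compared, 3 passed for 543 and 0 for 059 against 062. Without the replicate block they were 0 for 603, 2 for MSH3 against MSH6 hairpins and 0 for 059 against 062; with a replicate block the counts of the lines stayed within 1.5 times. Without the 5 arrays of letter A they were 6 for 059, 9 for 062, 3 for 543, 9 for 603 and 11 for 059 against 062. In the same order, 13.1%, 18.1%, 5.87%, 18.5% and 14.3% of all tested genes were called. In pairs of hairpins, MSH3 against MSH6 gave 0, 1, 2 and 5 where the mean gave 6. In the same order, 1.57%, 4.71%, 4.16%, 10.6% and 9% of all tested genes were called. The causes were not tested.

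On leaving out each array in turn, the counts were 29 to 32 for HCT116 against KLE shCTRL, 25 to 31 for MCF10A against KLE shCTRL, 16 to 26 for HCT116 against MCF10A, 14 to 17 for letter A, 2 to 6 for MSH3 against MSH6 hairpins (2 without 543 B or 603 C), 0 to 5 for 059 against 062 (5 without 062 A), 0 to 1 for 059, 0 to 4 for 062 (4 without 062 A), 0 to 1 for 543, 0 to 3 for 603 (0 without 603 C) and 0 for 543 against 603. Normexp and the pseudocount of 1 changed no call of the 46 named results; median scaling ended 13, the values as deposited 16 besides the 1 reversed. MGMT between the MSH3 and MSH6 hairpins lost its call only with the values as deposited (0.51, adjusted p = 0.092); TDG lost it there, with median scaling and without the block. Background left in the signal limits what DDB2, ERCC2, ERCC4, ERCC6, MPG and NEIL1 can show.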
